A study of Mus musculus with 6 samples.

Results

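Enzymes of mitochondrial fatty acid oxidation were followed in mouse liver through 10 genes, Cpt1a, Cpt2, Acadvl, Acadl, Acadm, Hadha, Hadhb, Acaa2, Eci1 and Etfdh. They were chosen by symbol as the enzymes that carry an acyl group into the mitochondrion, shorten it and pass on its electrons, and each matched 1 of the 56847 gene rows of the deposited tables. All 10 were among the 14215 genes with enough reads to be tested. The libraries came from livers of mice on CDAHFD, a diet low in choline, defined in its L-amino acids and rich in fat, on which rodents develop steatohepatitis (3 libraries), and from livers of mice on a normal diet (3 libraries). The comparison was set up by the submitters to follow pathways of lipid metabolism and of the mitochondrion. The labels give no genotype, strain, sex, age or time on the diet, and do not state whether 1 library stands for 1 animal, so p-values measure only the spread between these libraries.

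Long-chain fatty acids cross into mitochondria as carnitine esters, which a carnitine palmitoyltransferase on the outer membrane makes and another on the inner membrane takes apart. Inside, each turn of the spiral removes a 2-carbon unit by a dehydrogenation, a hydration, a second dehydrogenation and a thiolytic cleavage, and the electrons of the first step reach the respiratory chain through the electron transfer flavoprotein. In liver the acetyl-CoA that results feeds the citric acid cycle and ketone body synthesis, and the nuclear receptor PPARα, encoded by Ppara, is known to drive many of the genes concerned.

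On CDAHFD the RNA of 9 of the 10 enzymes was lower than on the normal diet and that of none was higher, by edgeR's quasi-likelihood test with a threshold of 0.05 on the Benjamini-Hochberg adjusted p of all tested genes. Of all 14215 genes tested, 23.5% were called lower and 28.5% higher. The 10 genes were chosen with earlier results of these data known, so these shares are a description and no test of the list. The largest decreases were those of Acaa2, at 48.7% of its normal diet level, Etfdh at 51.7% and Eci1 at 54.7%, whereas Cpt1a, the entry step, was at 87.5% and did not pass. The median log2 fold change of the 10 genes (CDAHFD over normal diet) was -0.57, against 0.01 over all genes tested. In CPM (counts scaled to a common library size by TMM, which sets that size from the bulk of the genes) the diets did not overlap for any of the 10, with CDAHFD lower, a separation that 28.4% of all genes tested showed in that direction. In TPM, the authors' deposited values scaled by gene length and library total, 6 of 10 separated this way, against 8.74% of all genes tested. In whole tissue, fewer cells of a type and less RNA per cell cannot be told apart.

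How many of these calls stood depended on how the libraries were scaled. With total counts 4 of the 10 were called lower (Acaa2, Etfdh, Eci1 and Cpt2), against 8.08% of all genes tested called lower and 44.0% higher. On log2(TPM + 1), tested with limma and a pseudocount of 1, 3 were lower (Acaa2, Etfdh and Eci1), against 6.36% of all genes lower and 42.8% higher. Scaling to 14 hepatocyte marker genes left the same 3, against 4.64% lower and 50.1% higher. These scalings moved the median of all genes tested to 0.34, 0.29 and 0.47, against 0.01 with TMM, and the median of the 10 enzymes to -0.24, -0.20 and -0.11. Among all calls, genes higher on CDAHFD made up 54.8% with TMM, 84.5% with total counts, 87.1% on log2(TPM + 1) and 91.5% with the hepatocyte markers. Acaa2, Etfdh and Eci1 were thus lower under all 4 scalings, and Cpt1a passed in none. Relative to the median of all genes tested, the median of the enzymes lay at -0.58, -0.58, -0.49 and -0.58 under the 4 scalings in turn. Between TMM, total counts and the hepatocyte markers this difference is nearly fixed by construction, since a new library size shifts all genes alike, and its likeness there is no sign of stability.

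**Figure D1:**
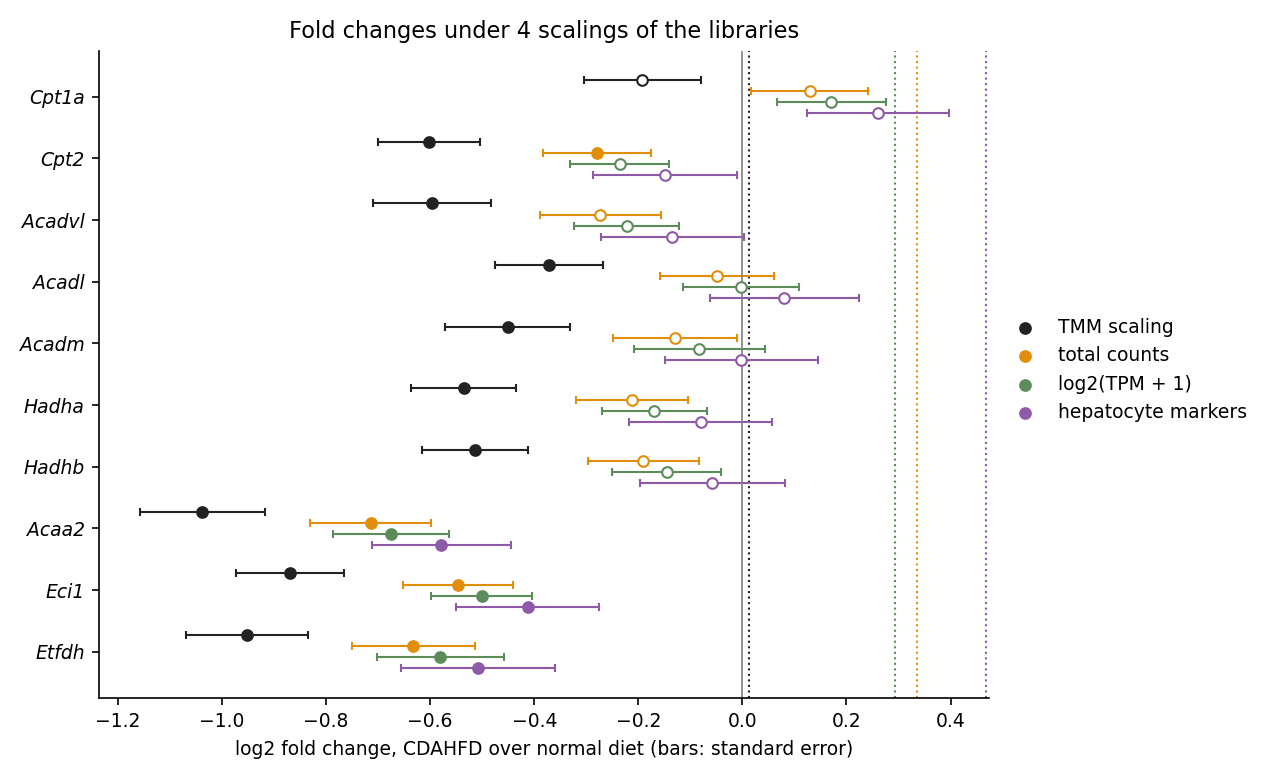
Log2 fold change (CDAHFD over normal diet, with standard error) of the 10 enzymes under 4 scalings of the libraries, 3 libraries per diet. Filled points passed an adjusted p of 0.05, hollow points did not, and dotted lines mark the median of all genes tested under each scaling. Acaa2, Etfdh and Eci1 are filled under every scaling, and Cpt1a lies at -0.19 with TMM and above 0 with the other scalings.

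Cpt1a (ENSMUSG00000024900, chromosome 19 in GRCm38) encodes the liver form of the outer membrane carnitine palmitoyltransferase, the enzyme that malonyl-CoA inhibits. It had 912, 875 and 779 CPM in the CDAHFD libraries, against 932, 991 and 1009 CPM in the normal diet libraries. The CDAHFD values were all lower but close to the normal diet ones, and the log2 fold change of -0.19 ± 0.11 did not pass edgeR's test (adjusted p = 0.172). In deposited TPM the groups overlapped, with 376, 346 and 327 TPM on CDAHFD and 287, 332 and 312 TPM on the normal diet. The direction therefore turned with the scaling, to 0.13 with total counts, 0.17 on log2(TPM + 1) and 0.26 with the hepatocyte markers, and none of these passed.

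Cpt2 (ENSMUSG00000028607, chromosome 4), the inner membrane enzyme that returns the acyl group to coenzyme A, had 177, 177 and 166 CPM on CDAHFD and 257, 267 and 266 CPM on the normal diet. Its CDAHFD libraries lay close together and well apart from the normal diet ones, at a log2 fold change of -0.60 ± 0.10 (edgeR adjusted p = 0.000387). In TPM it had 233, 224 and 223 on CDAHFD and 254, 286 and 262 on the normal diet, again without overlap. With total counts the change was -0.28 (adjusted p = 0.0369), and on log2(TPM + 1) and with the hepatocyte markers it no longer passed.

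**Figure D2:**
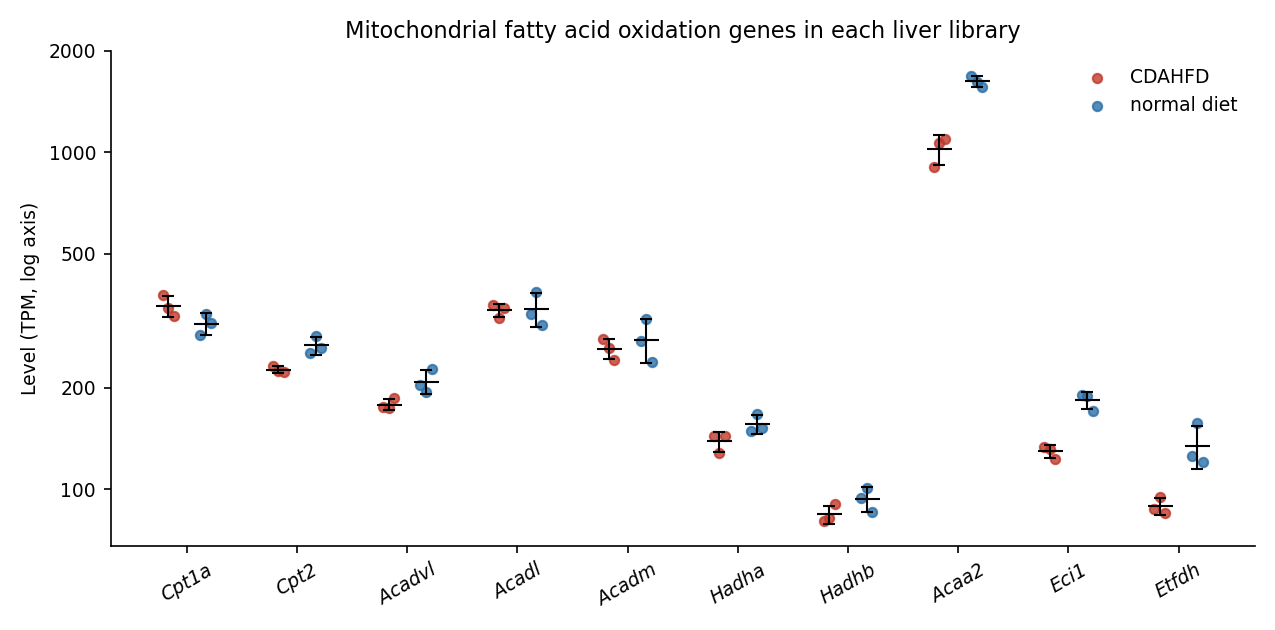
Deposited TPM of each of the 10 enzymes in the 3 CDAHFD and the 3 normal diet libraries, with 1 point per library and the mean and SD of each diet. Acaa2 stands above the other enzymes on both diets, at 901 to 1093 TPM on CDAHFD and 1565 to 1686 TPM on the normal diet.

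The 3 acyl-CoA dehydrogenases, which make the first double bond and differ in the chain lengths they prefer, were all lower with TMM. Acadvl (ENSMUSG00000018574, chromosome 11), for very long chains, had 149, 154 and 156 CPM on CDAHFD and 233, 203 and 259 CPM on the normal diet, a log2 fold change of -0.60 ± 0.11 (edgeR adjusted p = 0.00111). Its spread was wide on the normal diet and narrow on CDAHFD, without overlap. Acadvl overlaps Dvl2 on the opposite strand in GENCODE M21, and the authors' strand setting is not given in the sources used here. Dvl2 had 164 to 178 counts on CDAHFD and 74 to 103 on the normal diet; Acadvl had 3689 to 5192.

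Acadl (ENSMUSG00000026003, chromosome 1), the long-chain enzyme, had 224, 213 and 215 CPM on CDAHFD and 282, 301 and 261 CPM on the normal diet. It had the smallest change among the 9 that passed, -0.37 ± 0.10 (edgeR adjusted p = 0.0106), and the groups did not overlap in CPM. They did overlap in TPM, where Acadl averaged 339 ± 15.8 on CDAHFD and 341 ± 39.4 on the normal diet (SD, n = 3 each), and its fold change turned to 0.08 with the hepatocyte markers. Acadm (ENSMUSG00000062908, chromosome 3), the medium-chain enzyme whose deficiency is a common inborn error of this pathway in humans, had 346, 340 and 296 CPM on CDAHFD and 459, 489 and 395 CPM on the normal diet. Replicate 3 was the lowest library on both diets, and the change was -0.45 ± 0.12 (edgeR adjusted p = 0.00824). In TPM the Acadm groups overlapped too, at 261 ± 18.1 on CDAHFD and 278 ± 40.9 on the normal diet. Neither Acadl nor Acadm, nor Acadvl, passed with total counts, on log2(TPM + 1) or with the hepatocyte markers.

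Hadha and Hadhb encode the α and β subunits of the trifunctional protein, an inner membrane complex that carries out the last 3 steps for long chains. Both lie on chromosome 5 of the mouse, head to head on opposite strands, and their starts in RefSeq (GRCm38.p6) are 273 bases apart. The RefSeq window of each gene, 250 bases before its start to 50 bases after it, therefore shares 228 of 300 bases with the other's. The Hadhb window is shown because it holds this shared stretch, at chr5:30155003-30155302 on the plus strand, with the bases it shares with the Hadha window in capitals and the rest in lower case.

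Hadhb: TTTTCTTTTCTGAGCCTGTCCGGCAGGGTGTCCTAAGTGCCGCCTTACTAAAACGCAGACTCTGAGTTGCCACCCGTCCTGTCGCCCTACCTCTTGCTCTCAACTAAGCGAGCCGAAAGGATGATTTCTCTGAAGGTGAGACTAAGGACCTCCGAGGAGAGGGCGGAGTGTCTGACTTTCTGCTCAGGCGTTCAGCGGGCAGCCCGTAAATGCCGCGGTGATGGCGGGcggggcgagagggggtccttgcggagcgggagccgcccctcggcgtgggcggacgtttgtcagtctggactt

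**Figure D3:**
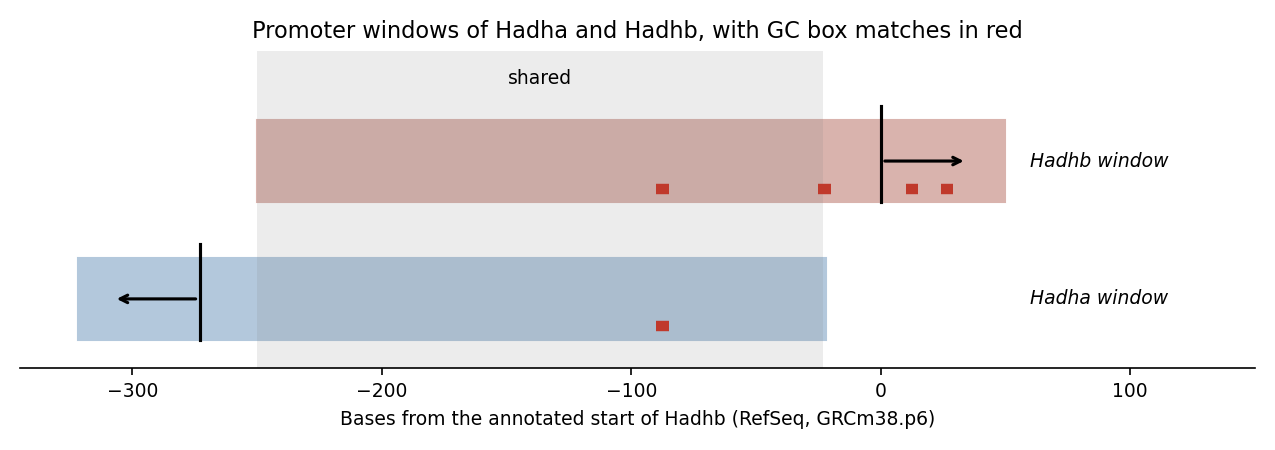
Map of the Hadha and Hadhb windows (300 bases each, RefSeq GRCm38.p6), with distance in bases along the axis, the shared stretch of 228 bases in grey, arrows at the starts and GC box matches in red. The starts lie 273 bases apart and point away from each other.

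Hadha (ENSMUSG00000025745) had 399, 371 and 393 CPM on CDAHFD and 552, 569 and 564 CPM on the normal diet, a log2 fold change of -0.54 ± 0.10 (edgeR adjusted p = 0.00105). Hadhb (ENSMUSG00000059447) had 169, 179 and 186 CPM on CDAHFD and 264, 259.7 and 239 CPM on the normal diet, a log2 fold change of -0.51 ± 0.10 (edgeR adjusted p = 0.00146). With TMM the genes of both subunits were thus lower by nearly the same amount, each without overlap between the diets in CPM. Neither Hadha nor Hadhb passed with total counts (-0.21 and -0.19), on log2(TPM + 1) (-0.17 and -0.15) or with the hepatocyte markers (-0.08 and -0.06). Per length, the Hadhb to Hadha ratio of TPM was 0.562, 0.639 and 0.626 in the CDAHFD libraries and 0.633, 0.604 and 0.561 in the normal diet libraries. These ranges overlapped, and the mean log2 ratio differed by 0.02 (two-sided exact permutation test, p = 0.7, and adjusted p = 0.7 over the 4 ratios tested). The difference turned to -0.01 without CDAHFD replicate 2 and to -0.02 without normal diet replicate 3. In TPM, Hadha separated the diets, at 139 ± 9.01 on CDAHFD and 156 ± 9.45 on the normal diet, whereas Hadhb overlapped, at 84.4 ± 5.17 on CDAHFD and 93.5 ± 7.68 on the normal diet.

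Acaa2 (ENSMUSG00000036880, chromosome 18), the soluble thiolase that splits off acetyl-CoA from shorter chains, had 434, 533 and 517 CPM on CDAHFD and 1085, 957 and 1004 CPM on the normal diet. The highest CDAHFD library was far below the lowest normal diet library. The log2 fold change was -1.04 ± 0.12 (edgeR adjusted p = 3.29e-05), the largest of the 10, and stayed between -1.13 and -0.99 when each library was left out in turn. It was -0.71 with total counts, -0.68 on log2(TPM + 1) and -0.58 with the hepatocyte markers, and passed in each case (adjusted p = 0.000209, 0.00107 and 0.00102).

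Set against the thiolase subunit of the trifunctional protein, Acaa2 was lower as well. The Acaa2 to Hadhb ratio of TPM was 11.2, 13.0 and 12.1 on CDAHFD and 17.9, 16.0 and 18.3 on the normal diet. The ranges did not overlap, and the ratio on CDAHFD was 0.693 of that on the normal diet (two-sided exact permutation test, p = 0.1, the smallest that 3 against 3 libraries allow, adjusted p = 0.2). A ratio of this kind is taken within a library and does not depend on the scaling.

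Eci1 (ENSMUSG00000024132, chromosome 17) encodes an enoyl-CoA isomerase that moves the double bonds of unsaturated fatty acids into a position the spiral can use. It had 90.3, 92.7 and 81.5 CPM on CDAHFD and 172, 157 and 154 CPM on the normal diet. All CDAHFD libraries lay well below all normal diet ones, at a log2 fold change of -0.87 ± 0.10 (edgeR adjusted p = 4.35e-05). The change was -0.55 with total counts, -0.50 on log2(TPM + 1) and -0.41 with the hepatocyte markers (adjusted p = 0.000766, 0.00255 and 0.0153).

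Etfdh (ENSMUSG00000027809, chromosome 3) encodes the electron transfer flavoprotein dehydrogenase, which hands the electrons of the acyl-CoA dehydrogenases to ubiquinone. It had 208, 235 and 199 CPM on CDAHFD and 401, 461 and 382 CPM on the normal diet. Replicate 2 was the highest library on both diets, and the groups stayed far apart, at a log2 fold change of -0.95 ± 0.12 (edgeR adjusted p = 5.4e-05). In TPM the values were 87.2, 94.8 and 85.0 on CDAHFD and 126, 157 and 120.2 on the normal diet. The change was -0.63 with total counts, -0.58 on log2(TPM + 1) and -0.51 with the hepatocyte markers (adjusted p = 0.000586, 0.00415 and 0.00645).

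RefSeq (GRCm38.p6) windows were matched for 9 of the 10 genes, all but Acaa2, and searched on both strands for 5 motifs. Etfdh and Cpt1a are shown because they had the largest and the smallest change with TMM among the matched genes. A different motif is marked in each, although both windows hold GC boxes and CCAAT boxes. The GC box of Etfdh, at positions 34 to 39 from the start, is left in lower case. In Etfdh, at chr3:79628718-79629017 on the minus strand, the capitals mark the match to the nuclear respiratory factor 1 motif (any base was allowed at its sixth letter), at positions -128 to -119 from the start. In Cpt1a, at chr19:3323051-3323350 on the plus strand, they mark 3 GC boxes, which read GGGCGG on the other strand.

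Etfdh: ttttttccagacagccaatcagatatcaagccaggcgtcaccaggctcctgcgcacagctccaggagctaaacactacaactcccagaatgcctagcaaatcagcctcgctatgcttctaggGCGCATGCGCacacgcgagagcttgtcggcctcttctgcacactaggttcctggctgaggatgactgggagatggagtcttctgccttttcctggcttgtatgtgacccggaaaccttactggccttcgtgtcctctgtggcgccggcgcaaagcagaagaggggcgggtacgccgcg

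Cpt1a: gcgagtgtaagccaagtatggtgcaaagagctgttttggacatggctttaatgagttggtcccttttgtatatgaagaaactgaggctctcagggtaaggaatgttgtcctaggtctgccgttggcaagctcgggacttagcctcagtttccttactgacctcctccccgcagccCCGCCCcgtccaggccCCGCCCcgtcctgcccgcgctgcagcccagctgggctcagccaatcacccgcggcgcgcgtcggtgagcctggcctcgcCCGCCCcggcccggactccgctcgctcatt

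The nuclear respiratory factor 1 motif, whose palindromic match reads the same on both strands, occurred in 1 of the 9 windows, that of Etfdh, and in 4.6% of all 32851 RefSeq windows of the same length. The GC box occurred in 7 of the 9 windows, against 35.7% of all windows. The match in the Hadha window (-188 to -183) is the same site as one in the Hadhb window (-90 to -85), so these windows are not separate cases. There was a CCAAT box in 2 of the 9, those of Etfdh and Cpt1a, against 37.4% of all. The GC content of the 9 windows was 50.7% to 70.3%, against a median of 52.7% over all windows. A consensus for the PPAR response element, the letters AGGTCA repeated after 1 base of any kind, was in 0 of the 9 windows and in 0.0396% of all, and TCAAGGTCA, the estrogen-related receptor element, in 0 of the 9 and in 0.423% of all. A match describes the letters in this window and not a bound site, and no match says only that these letters are not in it.

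Because a scaling moves every gene of a library by the same amount, the genes were also set against each other within each library, as the log2 TPM of a gene minus the mean log2 TPM of the 10. On this measure Cpt1a was 0.83, 0.73 and 0.64 above the mean of the 10 in the CDAHFD libraries and 0.23, 0.32 and 0.39 above it in the normal diet libraries. Its relative level was higher on CDAHFD by 0.42, without overlap, and by 0.37 to 0.46 when each library was left out in turn. Acadl was also relatively higher without overlap, by 0.24. Acaa2, Etfdh and Eci1 were relatively lower without overlap, by differences of -0.43, -0.34 and -0.26. For the other 5 the diets overlapped, with differences from 0.01 (Cpt2) to 0.16 (Acadm). These differences sum to 0 by construction, so one gene's relative rise is another's relative fall.

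**Figure D4:**
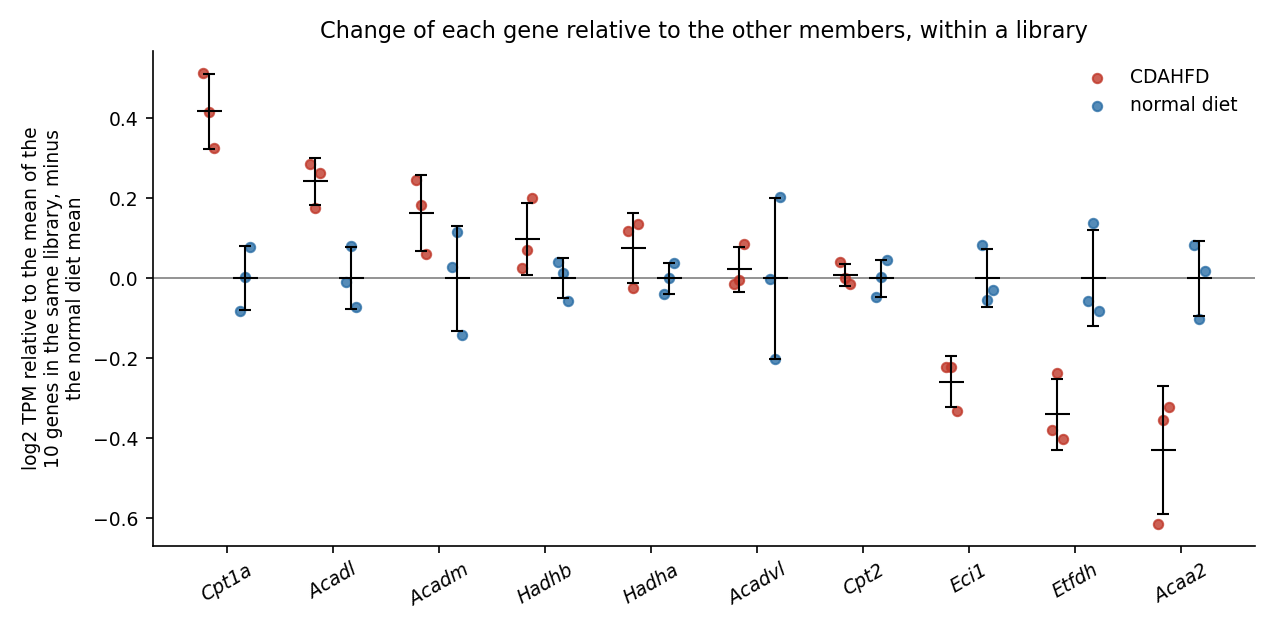
Log2 TPM of each of the 10 enzymes minus the mean log2 TPM of the 10 in the same library, for the 3 CDAHFD and the 3 normal diet libraries. Cpt1a and Acadl sit higher on CDAHFD without overlap, and Acaa2, Etfdh and Eci1 lower, with differences of 0.42, 0.24, -0.43, -0.34 and -0.26.

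The makeup of the summed TPM of the 10 genes shifted accordingly. That sum was 2761, 2828 and 2857 TPM on CDAHFD and 3599, 3747 and 3442 TPM on the normal diet. Acaa2 made up 36.2% ± 3.07 of it on CDAHFD and 45.1% ± 1.88 on the normal diet (SD, n = 3 each), and Cpt1a 12.4% ± 1.1 on CDAHFD and 8.64% ± 0.571 on the normal diet. Cpt1a thus took a larger share of these transcripts on CDAHFD and Acaa2 a smaller one, although the TPM of Cpt1a itself overlapped between the diets. Cpt2, the other palmitoyltransferase, made up 8.06% ± 0.347 on CDAHFD and 7.44% ± 0.339 on the normal diet. The shares make up a whole, so a smaller share of Acaa2 enlarges those of other genes. The Cpt1a to Cpt2 ratio of TPM was 1.61, 1.55 and 1.47 in CDAHFD libraries and 1.13, 1.16 and 1.19 in normal diet libraries, a 1.33-fold difference without overlap (two-sided exact permutation test, p = 0.1, adjusted p = 0.2). The Acadl to Acadm ratio was 1.27, 1.22 and 1.42 on CDAHFD and 1.2, 1.2 and 1.29 on the normal diet and overlapped, with a mean log2 difference of 0.08 (two-sided exact permutation test, p = 0.4, adjusted p = 0.533).

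Ranked by mean TPM on CDAHFD, the order was Acaa2, Cpt1a, Acadl, Acadm, Cpt2, Acadvl, Hadha, Eci1, Etfdh and Hadhb. Neighbours whose library ranges overlapped were Cpt1a and Acadl, Hadha and Eci1, and Etfdh and Hadhb. On the normal diet the order was Acaa2, Acadl, Cpt1a, Acadm, Cpt2, Acadvl, Eci1, Hadha, Etfdh and Hadhb, with overlap between neighbours from Acadl to Cpt2 and between Hadha and Etfdh. Acaa2 was first and Hadhb last on both diets, and the genes that changed places were neighbours with overlapping ranges on at least 1 diet. The coefficient of variation of TPM ran from 2.56% (Cpt2) to 10.1% (Acaa2) on CDAHFD and from 3.74% (Acaa2) to 14.8% (Etfdh) on the normal diet.

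The genes whose profile over the 6 libraries was most like that of the 10 enzymes were found among 7897 other genes with a mean of at least 10 CPM, by the Euclidean distance of mean-centred log2 CPM to the enzymes' average profile. The nearest was Ppara itself, at a distance of 0.056, followed by Mmadhc (0.0638), Mtfr1 (0.0829), Yy1 (0.088) and Cldn12 (0.0882). Among the enzymes the distance to their own average ran from 0.0771 for Cpt2 to 0.5882 for Acaa2. Ppara had 159, 163 and 152 CPM on CDAHFD and 242, 254 and 236 CPM on the normal diet, without overlap and with a log2 fold change of -0.62 ± 0.10 (edgeR adjusted p = 0.000329). With total counts it was -0.30 (adjusted p = 0.0273), and on log2(TPM + 1) and with the hepatocyte markers it did not pass, at -0.25 (adjusted p = 0.0602) and -0.17 (adjusted p = 0.313). The distance mostly reflects the size of the difference between the diets, since that difference makes up most of each profile.

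A further 27 genes of the pathway were described by role, of which 26 were tested, 18 were lower, 2 were higher and 6 did not pass with TMM, with a median log2 fold change of -0.63. With total counts 13 were lower and 3 higher, on log2(TPM + 1) 10 of 25 were lower and 2 higher, and with the hepatocyte markers 6 were lower and 3 higher. Of all genes tested, 23.5% were called lower with TMM, and 8.08%, 6.36% and 4.64% under these other scalings in turn. The shares called higher were 28.5% with TMM and 44.0%, 42.8% and 50.1% under the others. In fatty acid activation and entry, 3 of 5 tested genes were lower and 1 was higher. Acsl1, the main acyl-CoA synthetase of oxidative tissues, averaged 697 ± 115 CPM on CDAHFD and 2167 ± 279 CPM on the normal diet, a log2 fold change of -1.64 ± 0.15 (edgeR adjusted p = 6.06e-06), larger than that of any of the 10 enzymes. Acsl5, a synthetase of the same family, changed by -0.89 ± 0.10 (edgeR adjusted p = 3.03e-05). Both synthetases were also lower under the other 3 scalings. Slc25a20, the carnitine-acylcarnitine carrier between the 2 palmitoyltransferases, changed by -0.64 ± 0.12 (edgeR adjusted p = 0.000781), which passed with total counts and not on log2(TPM + 1) or with the hepatocyte markers.

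The other forms of Cpt1 were rare. Cpt1b, the muscle form, had 1, 5 and 3 counts on CDAHFD and 0, 3 and 2 counts on the normal diet and was not tested. Cpt1c, the form known from brain and named here after its values were seen, had 18, 34 and 28 counts on CDAHFD and 2, 3 and 5 counts on the normal diet. It was higher, at 1.01 ± 0.253 CPM on CDAHFD and 0.165 ± 0.0774 CPM on the normal diet (edgeR adjusted p = 0.000596), and Cpt1a was the main form on both diets. Of the genes that set the malonyl-CoA level, Mlycd, whose enzyme removes malonyl-CoA, was lower by a log2 fold change of -0.64 ± 0.11 (edgeR adjusted p = 0.000473). This passed with total counts and not on log2(TPM + 1) (-0.28, adjusted p = 0.0571) or with the hepatocyte markers (-0.18, adjusted p = 0.284). Acacb, whose carboxylase makes malonyl-CoA at the mitochondrion, was at -0.32 ± 0.13 and did not pass (edgeR adjusted p = 0.0602). It passed as lower with RLE (adjusted p = 0.0486), with no filter (0.037), with DESeq2 (0.0385) and without normal diet replicate 2 (0.0147), and over the libraries left out the adjusted p ran to 0.213. It turned to values above 0 with total counts, on log2(TPM + 1) and with the hepatocyte markers (0.0003, 0.05 and 0.14).

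Among 6 other acyl-CoA dehydrogenases, 3 were lower and 1 was higher with TMM, which called 23.5% of all genes tested lower and 28.5% higher. Acadsb, which acts on short branched chains from isoleucine, averaged 78.4 ± 9.38 CPM on CDAHFD and 184 ± 21.9 CPM on the normal diet (-1.23 ± 0.13, edgeR adjusted p = 1.29e-05). Acad11 averaged 177 ± 5.41 CPM on CDAHFD and 365 ± 42.6 CPM on the normal diet. Acad12 was the exception, at 26.9 ± 2.15 CPM on CDAHFD and 11.2 ± 0.65 CPM on the normal diet (1.27 ± 0.12, edgeR adjusted p = 6.59e-06). Acadsb and Acad11 were lower and Acad12 higher under all 4 scalings.

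Of the 4 genes of the short-chain steps, 3 were lower with TMM, which called 23.5% of all genes tested lower. They were Hsd17b10 (-0.95 ± 0.14, edgeR adjusted p = 0.000195), a short-chain hydroxyacyl-CoA dehydrogenase, Acat1 (-0.68 ± 0.15), the acetoacetyl-CoA thiolase, and Echs1 (-0.57 ± 0.11), the short-chain hydratase. Hsd17b10 was lower under all 4 scalings, and Acat1 and Echs1 passed with TMM and with none of the other 3. All 3 genes for unsaturated fatty acids were lower, Decr1, the dienoyl-CoA reductase, at -0.75 ± 0.10, Eci2, a second isomerase, at -0.73 ± 0.14 and Ech1, the dienoyl-CoA isomerase, at -0.61 ± 0.10. These 3 stood with total counts and on log2(TPM + 1) and were lost with the hepatocyte markers. All 4 genes of the propionyl-CoA branch, which handles the remainder of odd chains, were lower with TMM as well. Among them Pcca, a subunit of propionyl-CoA carboxylase, was at -0.93 ± 0.11, Mmut, the methylmalonyl-CoA mutase, at -0.78 ± 0.14 and Mcee, the epimerase, at -0.42 ± 0.12, of which Pcca passed under all 4 scalings. Mmut also passed with total counts, and not on log2(TPM + 1) or with the hepatocyte markers. Mcee passed with TMM and with none of the other 3. With TMM, Mcee no longer passed without normal diet replicate 1 (edgeR adjusted p = 0.0659).

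The electron transfer flavoprotein sits between these dehydrogenases and the Etfdh product. Etfa, its α subunit, averaged 229.7 ± 25.6 CPM on CDAHFD and 386 ± 6.93 CPM on the normal diet (-0.75 ± 0.11, edgeR adjusted p = 0.000211). It was also lower with total counts and on log2(TPM + 1), and did not pass with the hepatocyte markers (-0.30, adjusted p = 0.0715). Etfb, the β subunit, had 16, 65 and 56 counts on CDAHFD and 79, 45 and 34 counts on the normal diet and did not pass (edgeR adjusted p = 0.27). In GENCODE M21 Gm45233, Gm44816 and Mir7051 overlap Etfb on the same strand. Gm45233 had 0 counts in all 6 libraries, Gm44816 had 3, 10 and 3 counts on CDAHFD and 4, 7 and 1 on the normal diet, and Mir7051 had at most 2 counts in a library. How the authors' counting treated reads in such overlaps is not stated, so the level of Etfb is uncertain.

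**Figure D5:**
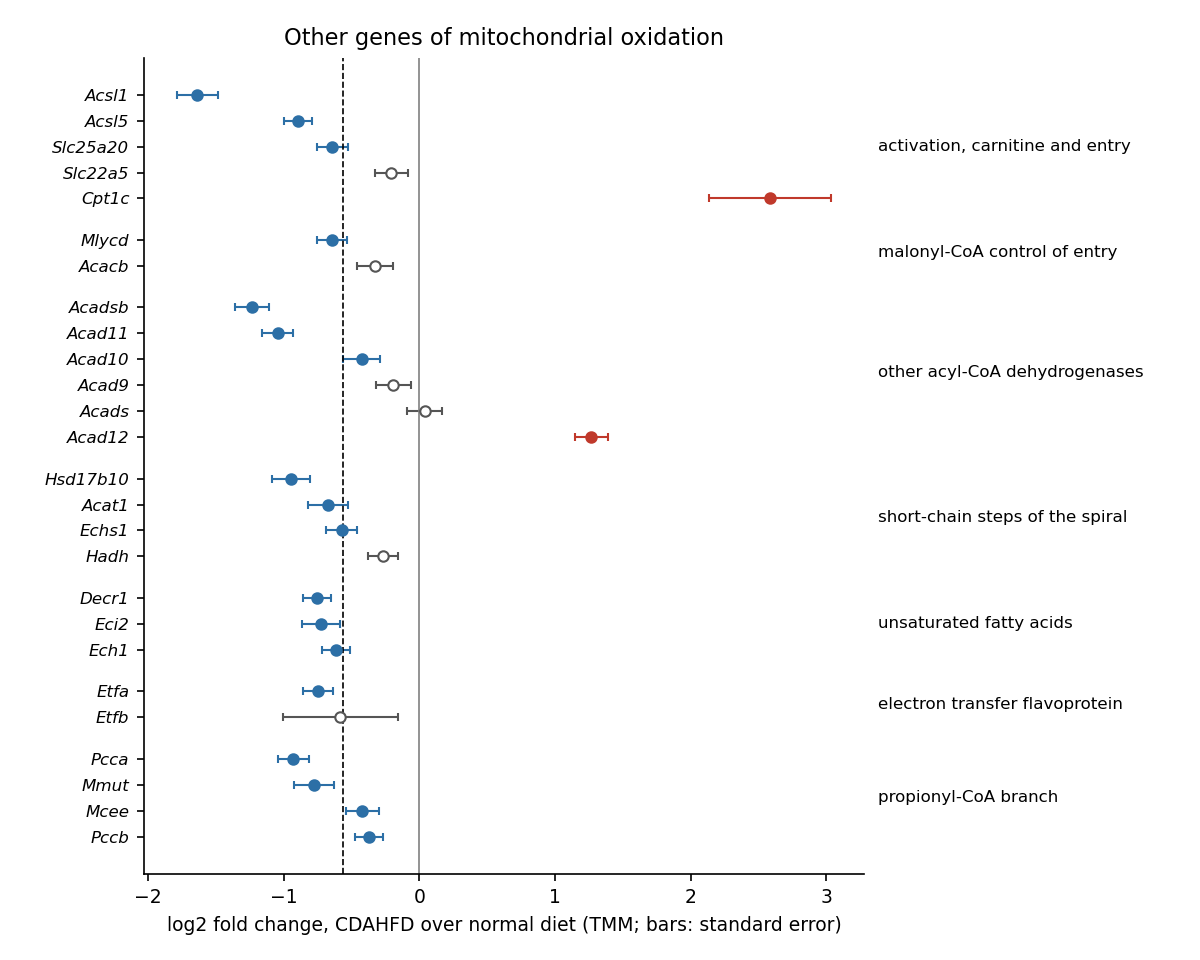
Log2 fold change (CDAHFD over normal diet, TMM, with standard error) of the 26 tested genes among 27 others of the pathway, grouped by role. Blue points are lower, red points higher and hollow points did not pass an adjusted p of 0.05, and the dashed line is the median of the 10 enzymes, -0.57. Acsl1 lies lowest at -1.64. Acad12 and Cpt1c passed above 0, and Acads lies at 0.04 and did not pass.

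In ketone body synthesis, a main outlet of hepatic acetyl-CoA, Bdh1, which reduces acetoacetate to β-hydroxybutyrate, was higher, at 444 ± 44.5 CPM on CDAHFD and 352 ± 35.9 CPM on the normal diet (0.34 ± 0.12, edgeR adjusted p = 0.0362), and higher under all 4 scalings. With TMM, Bdh1 no longer passed without CDAHFD replicate 1 or 2 or normal diet replicate 1 or 2 (adjusted p = 0.0728 to 0.207).

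Of 8 regulators of the pathway, 5 were lower with TMM and none was higher, and 2 were lower with total counts. On log2(TPM + 1) 1 was lower, and with the hepatocyte markers 1 was lower and 1 higher. Over all genes tested, the shares called lower were 23.5%, 8.08%, 6.36% and 4.64% under these scalings in turn. Those called higher were 28.5%, 44.0%, 42.8% and 50.1%. Lpin1, a phosphatidate phosphatase that also acts as a coactivator of PPARα, had the largest change, at 292 ± 75.1 CPM on CDAHFD and 1180.2 ± 103 CPM on the normal diet (-2.02 ± 0.18, edgeR adjusted p = 4.01e-06), and was lower under all 4 scalings. Sirt3, the main deacetylase of mitochondrial enzymes, was at -0.67 ± 0.16 with TMM (edgeR adjusted p = 0.00385) and passed with none of the other 3.

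The livers also differed in the RNA of other cell types. Hepatocyte markers were lower in 9 of 14 cases with TMM, with a median of -0.43. With total counts 5 were lower and 2 higher, against 8.08% and 44.0% of all genes tested. On log2(TPM + 1) 3 were lower and 2 higher, against 6.36% and 42.8%, so these markers did not all move in 1 direction. Their summed level was 125775 to 136299 CPM on CDAHFD and 161868 to 182623 CPM on the normal diet. In summed TPM the ranges were 193433 to 201611 on CDAHFD and 199502 to 218308 on the normal diet and overlapped. Macrophage markers were higher in 6 of 8 cases, with a summed level of 1484 to 1616 CPM on CDAHFD and 264 to 331 CPM on the normal diet. Lyz2 and Gpnmb, averaging 523 and 516 CPM on CDAHFD, were the largest parts of that sum. The other 2 macrophage markers, Clec4f and Timd4, were at -0.29 and -0.56 with TMM and did not pass. Stellate cell and fibroblast markers were higher in 7 of 7 cases, with 1121 to 1361 CPM on CDAHFD and 225 to 282 CPM on the normal diet. Markers of cholangiocytes (4 of 4), lymphocytes (4 of 4) and neutrophils (3 of 3) were higher too, and 1 of 4 endothelial markers was. With TMM, which these counts use, 28.5% of all genes tested were called higher and 23.5% lower. Markers of striated muscle and adipocytes, tissues that also oxidise or store fatty acids, summed to at most 0.167 and 0.369 TPM in any library. Alb, the defining hepatocyte transcript, took 7.72% to 9.69% of the counts of a library. The part of these shifts in the lower enzyme levels was not tested, and the values scaled to the hepatocyte markers are given above.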

How the data were processed

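Total RNA of 6 liver libraries was extracted with TRIzol and made into stranded poly(A) libraries, per the labels' protocols. STAR 2.7.11a and the build GRCm39 are named in the submitters' processing notes. How reads were counted, on which annotation and with what strand setting is not stated there or in the labels. The authors deposited raw counts per gene (21986215 to 25628531 per library) and TPM, and 0 columns of per-sample values were left unused.

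Of 56847 gene IDs, 51911 matched a symbol. Genes were kept with filterByExpr (minimum count 10), scaled by TMM (factors 1.09 to 1.14 on CDAHFD and 0.878 to 0.907 on the normal diet) and tested with edgeR 4.0.16 (quasi-likelihood, diet as the only term) in R 4.3.3, with p-values adjusted by Benjamini and Hochberg's method over the 14215 genes. The biological coefficient of variation was 0.136. Alternatives were RLE, total counts, TMM without the 20 most abundant genes, factors from the hepatocyte markers, no filter, 1 CPM in 3 libraries, DESeq2 1.42.0, limma-voom and log2 TPM with limma 3.58.1, a replicate block, and leaving out each library. Ratios were compared by exact permutation tests, adjusted over the 4 ratios. On simulated data with 100 genes changed at each fold, the edgeR test recovered 90 of those changed 2-fold and 31 of those changed 1.5-fold. Of its 131 calls, 10 were false. Far fewer genes were changed there than were called in the data, so these rates need not hold for the data.

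Within a diet, libraries differed by more than sampling noise (chi-square per degree of freedom 19.1 to 43.4), so none was counted as a second sequencing of the same library. This cannot show whether the libraries came from separate animals. Promoter windows and gene overlaps come from GRCm38 references, used for no coordinates of the deposited data. Overlapping genes and close paralogs can share reads, which adds uncertainty to single values. Members and lists were chosen with earlier results of these data known. Named genes are the 10 enzymes, up to 3 passing genes of largest change and at least 1 CPM per list or role (the 2 most abundant where fewer than 2 passed), Slc25a20, Cpt1b and Ppara, and the 5 genes nearest in profile. Some genes that this rule takes are not reported here.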

Additional observations from a re-analysis of the deposited data

How the results depend on the processing

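The 9 lower calls stood with RLE, with no filter or 1 CPM in 3 libraries, with TMM without the 20 most abundant genes, with DESeq2 and limma-voom, and without each library in turn (9 to 9 lower, median -0.60 to -0.56). They did not all stand when the scaling changed. With total counts 4 enzymes were lower (median -0.24) among 1149 genes lower and 6249 higher, and Cpt1a turned to 0.13 and Acacb to 0.0003. With the hepatocyte markers 3 were lower (median -0.11) among 659 lower and 7126 higher, with 6 of the wider list lower, and Cpt1a turned to 0.26, Acadl to 0.0804, Acacb to 0.14, Mcee to 0.0447 and Phb2 to 0.0384. On log2(TPM + 1) 3 were lower (median -0.20), with 10 of the wider list and 835 genes lower, on log2(TPM + 0.1) 3, 9 and 824 (median -0.20), and on log2(TPM + 1) without a filter 3, 9 and 714 with 6175 higher (median -0.20). In these 3, Cpt1a turned to 0.17 and Acacb to 0.0514, 0.0532 and 0.0514. With 1 CPM in 3 libraries 25 genes of the wider list were tested and 1 was higher. Cpt1c, with 18 of the 21986215 counts of CDAHFD replicate 1 and at most 5 counts on the normal diet, did not meet that filter. The cause of the shifts with the scaling was not tested.

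Without each library in turn, the wider list had 15 to 19 lower and 2 to 2 higher, and all genes 2871 to 3416 lower and 3530 to 4104 higher. The log2 differences of the ratios ran from -0.0242 to 0.0803 (Hadhb to Hadha, -0.0131 without CDAHFD replicate 2), 0.38 to 0.44 (Cpt1a to Cpt2), -0.59 to -0.47 (Acaa2 to Hadhb) and 0.02 to 0.12 (Acadl to Acadm).

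With the replicate number as a block, 9 enzymes were lower among 3312 genes lower and 4046 higher, Acacb passed (adjusted p = 0.0353) and Bdh1 did not (0.0584). Same-numbered libraries deviated together with correlations of -0.047, 0.069 and 0.118, and not every library correlated best with its own number, so the numbers were not read as pairs. Counts per enzyme and library were 2093 to 24491, and counting error is part of the spread between libraries.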

Other observations

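Peroxisomes, which shorten very long chains before mitochondria take them over, showed a similar direction. Of 7 peroxisomal oxidation genes, 6 were lower and none was higher on CDAHFD with TMM, with a median of -0.86. With total counts and on log2(TPM + 1) 5 were lower, and with the hepatocyte markers 4. The shares of all genes tested called lower were 23.5% with TMM, 8.08% with total counts, 6.36% on log2(TPM + 1) and 4.64% with the hepatocyte markers. Abcd3, a transporter of the peroxisomal membrane, was at -1.29 ± 0.12 and Scp2, which holds a peroxisomal thiolase, at -0.87 ± 0.14. Both were lower under all 4 scalings.

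Genes of mitochondrial structure and protein import, listed as a measure of the organelle that is not part of the oxidation pathway, were lower in 8 of 12 cases with TMM, with a median of -0.31. With total counts, on log2(TPM + 1) and with the hepatocyte markers 0 were lower and 2 were higher each time. Among all genes tested, 23.5% were called lower with TMM, and 8.08%, 6.36% and 4.64% under these other scalings in turn. The shares called higher were 28.5% with TMM and 44.0%, 42.8% and 50.1% under the others. The median of the list turned to 0.01, 0.06 and 0.15, against 0.34, 0.29 and 0.47 over all genes tested (0.01 with TMM). Timm44, of the inner membrane import motor, was at -0.57 ± 0.10 with TMM, Hspa9, the mitochondrial chaperone, at -0.54 ± 0.12 and Phb2, a prohibitin of the inner membrane, at -0.42 ± 0.13. None of these 3 passed under the other 3 scalings, and Phb2 turned to 0.04 with the hepatocyte markers.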
